A study of Rattus norvegicus with 6 samples.

Results

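Long non-coding RNA (lncRNA) transcripts were compared between the left ventricle, the main pumping chamber of the heart, and the adrenal gland, the endocrine gland that makes steroid hormones in its cortex and catecholamines in its medulla. Both tissues came from male rats of the inbred strain BN at 6 weeks of age, as did the other tissues of the series, and the labels name no treatment or genetic modification. The series labels 1 sample for each of 6 tissues (left ventricle, adrenal gland, liver, cortex, outer medulla and hypothalamus), and the 2 samples compared here are those of left ventricle and adrenal gland. The label of the adrenal sample reads "adrenal glandin", and which organ the sample called cortex came from is not stated. Each tissue had 2 columns of FPKM, that is, sequenced fragments scaled by transcript length and by library total. The pair of values given for a tissue is always column 1 and then column 2. Nothing in the labels says that both columns came from separate animals. The p-values therefore reflect the scatter of columns within tissues, pooled over all 6, and nothing else, and that scatter may be technical. All 2455 transcripts with values entered the comparison, the same 2455 as in the whole series. They belong to 1646 loci.

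LncRNAs are transcribed and often spliced like messenger RNAs but are not translated into a known protein. Some act on chromatin or on neighbouring genes, some are the primary transcripts from which microRNAs are cut, and for most no function is known. They are known to be more restricted to single tissues than messenger RNAs. In bulk tissue, fewer cells of a type and less RNA per cell cannot be told apart.

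The steps between low FPKM values gave an implied depth of 10230000 and 10160000 fragments in left ventricle, against 13520000 and 17520000 in adrenal gland. At a limit of 3 fragments, a level of 0.293 and 0.295 FPKM in left ventricle, or of 0.222 and 0.171 FPKM in adrenal gland, could pass for 0 in a transcript with 1 kb of usable length. Only counting error is covered by these limits. A listed 0 may also stand for an estimate that failed. The table lists selected lncRNAs, so the labelled tissues could hardly be checked against marker genes. No transcript was assigned to any of 47 cardiac muscle genes, 14 cardiac transcription factors or 35 chromaffin genes. Of 38 adrenal cortex genes, 2 had a transcript. One of these overlapped Cyp11b3, a cytochrome P450 of the family that carries out the last steps of corticosteroid synthesis, and it was far higher in adrenal gland. The other, antisense to Wt1, was listed at 0 in all 4 columns.

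Of the lncRNAs detected in each organ, slightly more were also detected in the other organ than were not. At a mean FPKM of 0.5 or more, 612 transcripts were detected in left ventricle and 653 in adrenal gland. Both tissues held 333 of them, which is 54.4% of the left ventricle list and 51.0% of the adrenal gland list. A further 279 were detected in left ventricle alone and 320 in adrenal gland alone, and 260 of the 2455 were listed at 0 in all 4 columns. Over the 932 transcripts detected in either tissue, Pearson's r of log2(FPKM + 0.1) was 0.757 between the left ventricle columns and 0.819 between the adrenal gland columns. Between columns of different tissues it ran from -0.031 to 0.091. The transcripts share libraries, and those detected in neither tissue were left out, so the coefficients are descriptive.

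Differences were tested with limma on log2(FPKM + 0.1) for the 610 transcripts whose mean FPKM reached 1 in left ventricle, in adrenal gland or in both. The spread was pooled over all 12 columns of the 6 tissues. A tissue listed at 0 in both columns adds no scatter, which narrows the pooled spread of transcripts restricted to few tissues. A very small p therefore need not mean close agreement between the columns of the compared tissues. Of those 610, 365 (59.8%) differed at an adjusted p of 0.05: 168 (27.5%) were higher in left ventricle and 197 (32.3%) were higher in adrenal gland. At an unadjusted p under 0.05 there were 384. The median log2 difference (left ventricle minus adrenal gland) over all tested transcripts was -0.38, and -0.25 after columns were rescaled to a common median, so small differences are to be read against that shift. In every fit with 1 of the 4 columns left out, 242 of the 365 were called again, 124 for left ventricle and 118 for adrenal gland; the others lost the call or fell under the FPKM minimum at least once. The higher transcripts came from 139 loci in left ventricle and from 167 in adrenal gland. When FPKM was summed per locus, 335 of 540 loci (62.0%) differed, 155 (28.7%) in the direction of left ventricle and 180 (33.3%) in that of adrenal gland.

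**Figure D1:**
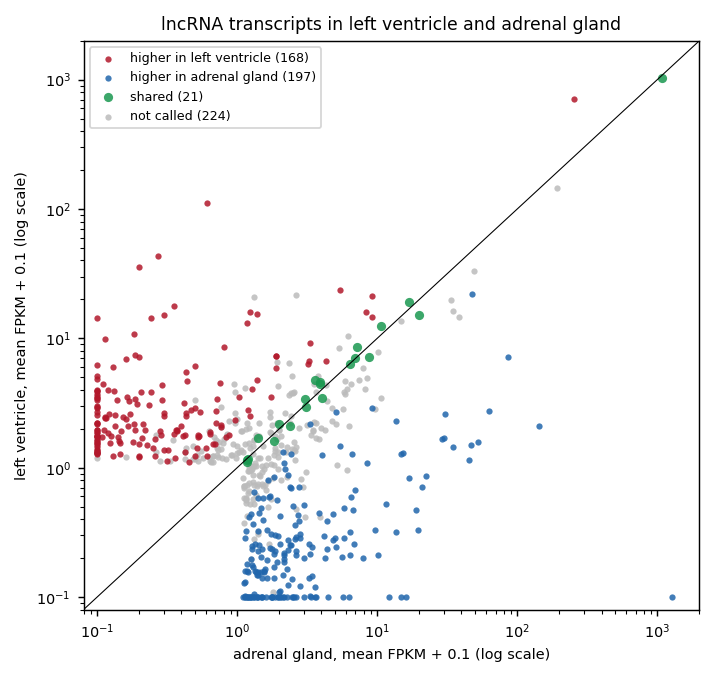
Mean FPKM + 0.1 of the 610 tested transcripts in left ventricle (vertical axis) and in adrenal gland (horizontal axis), both on log scales, with the line of equality. The 168 transcripts higher in left ventricle lie above the line, the 197 higher in adrenal gland below it, and the 21 shared ones along it, while those on the left and lower edges are listed at or close to 0 in one tissue.

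The minimum on FPKM bears on these counts. Of the 610, 206 reached the minimum in left ventricle alone and 242 in adrenal gland alone, so the minimum favours transcripts that differ. Among the 162 transcripts with a mean of 1 or more in both tissues, 20 were higher in left ventricle and 22 were higher in adrenal gland. The columns of both tissues did not overlap for any of the 365 called transcripts, nor for 510 of all 610 tested, so that lack of overlap says little beside the 59.8% that were called. In 73 called transcripts the lower tissue was listed at 0 in both columns, 35 of them higher in left ventricle and 38 higher in adrenal gland. Leaving those aside, the median log2 difference was 3.09 over 133 transcripts higher in left ventricle and -3.33 over 159 higher in adrenal gland.

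Adrenal gland column 2 stood apart in one respect. Of the 91 transcripts with an FPKM of 1 or more in hypothalamus that exceeded liver, cortex, outer medulla and left ventricle at least 5-fold there, the median level in adrenal gland was 4.02% of the hypothalamus mean in column 1 and 21.1% in column 2. Of these 91, 21 were called higher in adrenal gland than in left ventricle, beside 32.3% of all 610 tested transcripts. The choice of the 91 asked for a low level in left ventricle, which favours calls in that direction. How many of the 91 were tested was not counted. Without adrenal gland column 2, 14 of the 21 were still called, 6 no longer reached the minimum on FPKM, and 157 of all 197 calls in that direction remained, among 150 calls for left ventricle and 182 for adrenal gland. Of the marker list for neurons and glia, 2 of 48 genes had transcripts. Their summed FPKM was 0.143 and 0.131 in left ventricle, against 0 and 1.13 in adrenal gland.

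The levels of the differing lncRNAs were set beside those in the other 4 tissues, as a description, since the minimum and the call both choose transcripts that are high in the tissue named. Of the 168 transcripts higher in left ventricle, 138 (82.1%) were highest in left ventricle, 16 in liver, 8 in outer medulla, 5 in cortex and 1 in hypothalamus. Of the 197 higher in adrenal gland, 171 (86.8%) were highest in adrenal gland, 10 in hypothalamus, 7 in liver, 6 in cortex and 3 in outer medulla. Of the 21 shared transcripts, 9 were highest in liver, 5 in left ventricle, 4 in adrenal gland, 2 in cortex and 1 in outer medulla. Of the 224 that were neither called nor shared, 51 were highest in left ventricle, 70 in adrenal gland, 45 in liver, 26 in outer medulla, 20 in cortex and 12 in hypothalamus.

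Total lncRNA abundance rested on very few transcripts. Summed FPKM was 3779 and 3544 in left ventricle, against 5419 and 4858 in adrenal gland. The 2 most abundant transcripts of each column took 50.4 and 44.7% of that sum in left ventricle, against 45.9 and 45.6% in adrenal gland. One of them, TCONS_00012467, was common to both tissues. It is an 11142-base transcript with no reference gene (rn5, chr1:228080092-228091758), and it had 1112 and 953 FPKM in left ventricle, against 1231 and 916 in adrenal gland. The column values interleave, and the log2 difference was -0.04 (95% interval -0.55 to 0.46). TCONS_00012465, another isoform of that locus, had 98.6 and 190 FPKM in left ventricle, against 181 and 201 in adrenal gland, with a log2 difference of -0.48 (SE 0.753, limma adjusted p = 0.597).

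Other abundant transcripts differed between the tissues. TCONS_00015674, second in left ventricle, is a 267-base transcript overlapping ENSRNOG00000047167 (chr10:58888597-58890286). It had 793 and 630 FPKM in left ventricle, against 293 and 220 in adrenal gland. Both left ventricle columns were above both adrenal gland columns, and the log2 difference was 1.48 (SE 0.455, limma adjusted p = 0.0222). That call was lost when left ventricle column 1 (adjusted p = 0.122), left ventricle column 2 (0.0565) or adrenal gland column 2 (0.121) was left out of the limma fit. TCONS_00032703, the most abundant in adrenal gland by its mean, which overlaps ENSRNOG00000049138 (chr14:46814997-46864150), was listed at 0 in both left ventricle columns, against 1256 and 1302 FPKM in adrenal gland. Its adjusted p was 0.0144, and it lay between 0.0583 and 0.0672 when any 1 of the 4 columns was left out. The cortex columns of the same transcript stood at 3416 and 0 FPKM, and that gap entered the pooled spread.

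The transcripts with the largest excess in left ventricle had no reference gene, with 1 exception among the 8 at the top. TCONS_00060042, a 305-base transcript (chr2:173418576-173421499), had 118 and 103 FPKM in left ventricle, against 0 and 1.02 in adrenal gland. Its log2 difference was 8.36 (SE 1.02, limma adjusted p = 1.9e-04). TCONS_00060041, a 307-base isoform of the same locus, had 15.4 and 13.2 FPKM in left ventricle and was listed at 0 in both adrenal gland columns (adjusted p = 3.83e-07). The 2 isoforms differ by 2 bases in listed length, so how reads were divided between them is uncertain.

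TCONS_00054657 (chr2:81839891-81843858) had 36.1 and 34.8 FPKM in left ventricle, against 0.124 and 0.0713 in adrenal gland, a log2 difference of 7.50 (SE 0.519, limma adjusted p = 1.31e-05). TCONS_00068317 (chr3:142644461-142868604) had 43.2 and 43.8 FPKM in left ventricle, against 0.0568 and 0.284 in adrenal gland, a log2 difference of 7.47 (SE 1.18, adjusted p = 7.95e-04). For both, each left ventricle column stood far above each adrenal gland column. TCONS_00018600 (chr10:29695747-29740654) had 10.6 and 9.02 FPKM in left ventricle, against 0.0279 and 0 in adrenal gland, with a log2 difference of 6.45. The exception with a reference gene was TCONS_00073275, which overlaps ENSRNOG00000050588 (chr3:181345453-181349329), at 15.7 and 12.9 FPKM in left ventricle and 0.0595 and 0.228 FPKM in adrenal gland. TCONS_00075102, of 212 bases (chr4:149256204-149286960), had 18.8 and 16.3 FPKM in left ventricle, against 0 and 0.508 in adrenal gland (log2 difference 6.16, limma adjusted p = 0.0088), and the call was lost without adrenal gland column 1 (adjusted p = 0.0637). TCONS_00097409 (chr7:36929209-36932796) had 6.40 and 5.88 FPKM in left ventricle and was listed at 0 in both adrenal gland columns. Its highest tissue was liver, whereas the other 7 were highest in left ventricle.

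On the adrenal side, 5 of the 8 largest differences lay on chromosome 9, within chr9:11060508-11560435 or chr9:7319662-7502218. The separate transcripts of these stretches are uncertain, as described below. After TCONS_00032703, the next was TCONS_00074459, of 325 bases (chr4:61625469-61626957), at 1.8e-04 and 0 FPKM in left ventricle and 17.0 and 15.0 FPKM in adrenal gland (adjusted p = 1.99e-05). TCONS_00081178, of 205 bases (chr5:30050648-30052169), had 2.80 and 1.20 FPKM in left ventricle, against 114 and 171 in adrenal gland. Its log2 difference was -6.17 (SE 1.10, limma adjusted p = 0.00154). Of the 5 on chromosome 9, TCONS_00106384 had 9.91 and 19.7 FPKM and TCONS_00106367 had 17.7 and 6.22 FPKM in adrenal gland, and both were listed at 0 in left ventricle. TCONS_00106367 was also listed at 0 in liver, cortex and outer medulla. Its limma adjusted p was 2.13e-05 (SE 0.505) although its adrenal gland columns lay far apart. TCONS_00106378 had 0.234 and 0.231 FPKM in left ventricle, against 21.1 and 17.8 in adrenal gland, a log2 difference of -5.87 (SE 0.756, adjusted p = 2.55e-04). TCONS_00106382 had the same log2 difference, with 0.434 and 0 FPKM in left ventricle, against 12.2 and 14.7 in adrenal gland. TCONS_00106167, which overlaps RGD1564665, was listed at 0 in left ventricle and had 6.95 and 5.41 FPKM in adrenal gland.

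**Figure D2:**
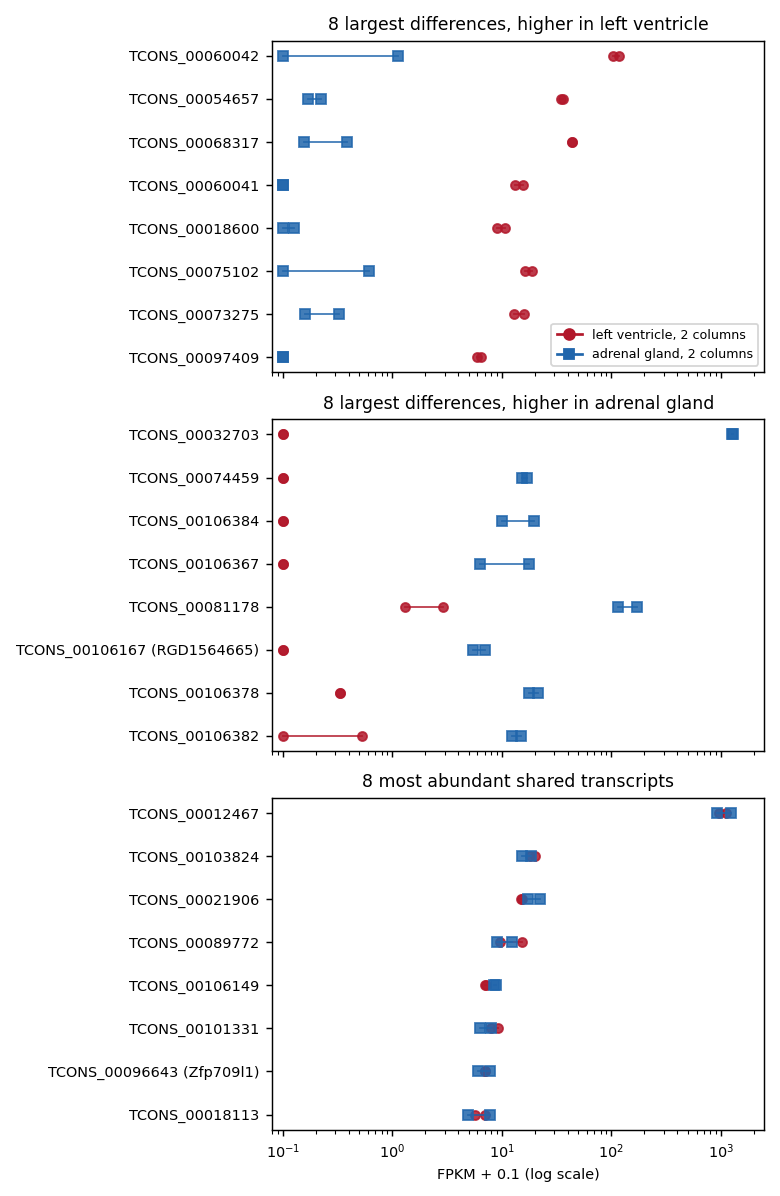
FPKM + 0.1 (log scale) in each column of left ventricle (circles) and adrenal gland (squares) for the 8 largest differences in each direction and the 8 most abundant shared transcripts, with a line joining the 2 columns of a tissue. Points at 0.1 are listed at or close to 0. The tissues stand well apart in the upper and middle panels and overlap or lie close together in the lower one, where TCONS_00012467 lies far to the right of the rest in all 4 columns.

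Shared transcripts were sought by their interval and not by a missed test. A transcript was called shared when its mean FPKM was 1 or more in both tissues and the 95% limma interval of its log2 difference lay within -1 and 1, that is, within 2-fold. Of the 162 transcripts at that level in both tissues, 21 (13.0%) met this. The remaining 224 of the 610 were neither called different nor shared, so their difference was not resolved. The shared transcripts were longer, with a median of 3635 bases (range 325 to 27793), against 1545.5 over all tested. They were also more abundant, with a median of 4.37 FPKM in the higher tissue, against 1.99 over all tested. Long or abundant transcripts give more fragments, and a narrow interval selected these, so both features cannot be told apart from precision. The rule also asked for a mean FPKM of 1 or more in both tissues, met by 162 of the 610, which by itself favours abundant transcripts.

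After TCONS_00012467, the most abundant shared transcripts were at a far lower level. TCONS_00103824, with no reference gene (chr8:45726441-45732210), had 20.0 and 17.9 FPKM in left ventricle, against 18.2 and 15.1 in adrenal gland (log2 difference 0.19, interval -0.23 to 0.61). TCONS_00021906, which matches ENSRNOG00000047539 (chr11:31873796-31877080), had 15.2 and 14.9 FPKM in left ventricle, against 22.0 and 17.4 in adrenal gland. Its interval of -0.78 to 0.02 lay mostly on the adrenal side. TCONS_00089772, of 325 bases (chr6:110709263-111237828), had 15.2 and 9.55 FPKM in left ventricle, against 12.2 and 8.85 in adrenal gland. TCONS_00101331, which shares a junction with ENSRNOG00000014846 (chr8:67030637-67066853), had 9.10 and 7.93 FPKM in left ventricle, against 7.84 and 6.29 in adrenal gland. TCONS_00106149, a match to ENSRNOG00000048566 (chr9:7065827-7067637), had 6.98 and 7.12 FPKM in left ventricle, against 8.73 and 8.47 in adrenal gland. For these 5 the interval excludes a 2-fold difference in either direction, which the rule for shared transcripts requires. TCONS_00089772 came closest to that limit, with an interval of -0.55 to 0.97.

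The 4 smallest differences among the shared transcripts ranged widely in level. Zfp709l1, a gene of the zinc finger family, was overlapped by TCONS_00096643 (chr7:10510140-10645717), at 6.93 and 6.93 FPKM in left ventricle and 7.67 and 5.91 FPKM in adrenal gland, a log2 difference of 0.04 (interval -0.51 to 0.60). TCONS_00018113, which matches ENSRNOG00000017586 (chr10:14348351-14348831), had 6.87 and 5.60 FPKM in left ventricle, against 7.73 and 4.85 in adrenal gland (log2 difference 0.02, interval -0.75 to 0.79). TCONS_00061599 (chr2:259139271-259145185) had 1.14 and 0.949 FPKM in left ventricle, against 1.33 and 0.829 in adrenal gland. TCONS_00002116, which shares a junction with Zfp84, had 1.16 and 0.976 FPKM in left ventricle, against 1.17 and 1.02 in adrenal gland. Others of the shared transcripts carried a gene symbol. They share a junction with the chromatin remodeller Chd2, with Smarce1, a subunit of the SWI/SNF remodelling complex, or with Sft2d2, a protein of vesicle transport. Still others overlap Zfp142, a zinc finger gene, or Fry, or lie antisense to Rsl1d1, a protein of the nucleolus. TCONS_00010204 at Chd2 had 3.52 and 3.22 FPKM in left ventricle, against 4.33 and 3.50 in adrenal gland. Reads of the protein-coding gene may be included in each of these values, since nothing at hand states whether counting used the strand. The same limit holds for all called transcripts that overlap a gene, share a junction with it or lie antisense to it.

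The share of differing transcripts varied with their relation to a reference gene. Over all 610 tested transcripts, 27.5% were higher in left ventricle and 32.3% were higher in adrenal gland, 59.8% in all. Among the 401 tested transcripts without a reference gene, 127 (31.7%) were higher in left ventricle, 137 (34.2%) were higher in adrenal gland and 9 were shared. Of the 31 that match a reference transcript, 4 were higher in left ventricle, 3 were higher in adrenal gland and 3 were shared, so 22.6% differed in all. Of the 58 that share a splice junction, 36.2% differed, 9 in the direction of left ventricle and 12 in that of adrenal gland. The 77 with another exon overlap leaned to the adrenal side, with 10 (13.0%) higher in left ventricle and 31 (40.3%) higher in adrenal gland. Their median log2 difference was -1.05, against -0.38 over all tested. Among the 31 are TCONS_00106162, TCONS_00106167, TCONS_00106382 and TCONS_00106384. These lie in stretches of chromosome 9, described below, whose separate transcripts are uncertain. How far the lean rests on those stretches was not tested. Of the 43 antisense to an exon, 18 (41.9%) were higher in left ventricle and 14 (32.6%) in adrenal gland, 74.4% in all. Isoforms and neighbouring loci share reads, so these transcripts are not independent and the classes were not tested against each other.

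**Figure D3:**
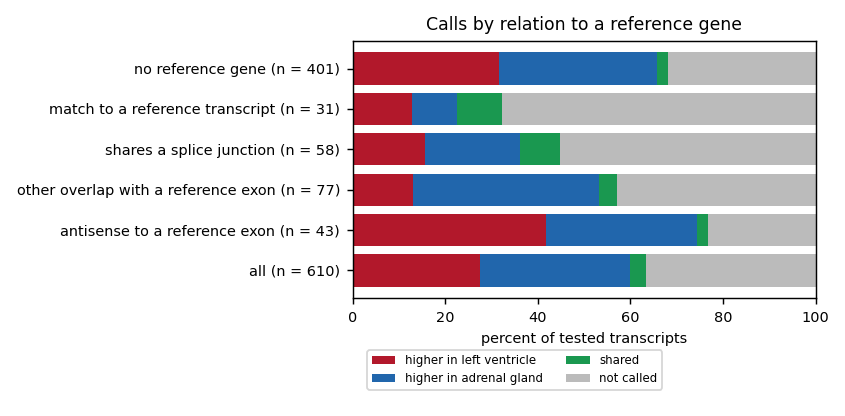
Percent of tested transcripts called higher in left ventricle, higher in adrenal gland, shared or none of these (horizontal axis), by relation to a reference gene. The grey remainder is widest for transcripts that match a reference transcript, where 22.6% differed, and narrowest for antisense transcripts, where 74.4% did.

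A gene symbol was given for 135 of the tested transcripts, from 116 genes. Of these, 28 were higher in left ventricle, 36 were higher in adrenal gland, 8 were shared and 63 were neither, beside the 27.5% and 32.3% called in those directions over all tested transcripts. The largest excess in left ventricle was at Palld, which encodes palladin, an actin-binding protein of the cytoskeleton. TCONS_00040367, which overlaps it (chr16:31198877-31810313), had 7.36 and 6.21 FPKM in left ventricle, against 0.0489 and 0.0751 in adrenal gland, a log2 difference of 5.41 (SE 0.296, limma adjusted p = 4.71e-06). TCONS_00039469, antisense to Spin1, a reader of histone methylation, had 5.59 and 2.22 FPKM in left ventricle (adjusted p = 1.05e-04). TCONS_00046645, antisense to Scgn, which encodes the calcium-binding protein secretagogin, had 3.88 and 2.83 FPKM there (adjusted p = 6.56e-05). Both antisense transcripts were listed at 0 in the adrenal gland columns. TCONS_00105667, which shares a junction with Tcta, had 10.6 and 6.41 FPKM in left ventricle, against 1.42 and 0 in adrenal gland. Its log2 difference was 4.42 (SE 1.65, adjusted p = 0.0477). The call was lost under 9 of 14 alternatives, with an adjusted p of 0.107 to 0.282 when either left ventricle column or adrenal gland column 2 was left out.

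Further symbols among the left ventricle calls were chosen for mention after their values were seen. Antisense to Eif4b, a translation initiation factor, TCONS_00099772 had 23.9 and 23.0 FPKM in left ventricle, against 6.11 and 4.50 in adrenal gland, a log2 difference of 2.14 (SE 0.207, limma adjusted p = 6.1e-05). TCONS_00103538 shares a junction with Fli1, an ETS transcription factor of endothelial and blood cells, and had 5.17 and 4.10 FPKM in left ventricle, against 1.20 and 1.35 in adrenal gland (log2 difference 1.78, adjusted p = 0.00584). TCONS_00071109, antisense to Spi1, a transcription factor of myeloid cells, had 1.11 and 1.17 FPKM in left ventricle, against 0.169 and 0.152 in adrenal gland (log2 difference 2.25, adjusted p = 0.0022). TCONS_00006905, which shares a junction with Grk5, a kinase that acts on activated G protein-coupled receptors, had 1.65 and 0.703 FPKM in left ventricle, against 2.97e-04 and 0.0930 in adrenal gland (log2 difference 3.09, adjusted p = 0.00209). Without left ventricle column 1 that transcript was under the FPKM minimum. Marker genes of blood, vessel, fibroblast and fat cells had transcripts for 2 of 33 genes and none was tested, so the makeup of these cells in each tissue was not measured here.

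Adrenal gland calls with a symbol included transcripts at a gene of steroid synthesis and at an imprinted gene. TCONS_00098844, of 260 bases, overlaps Cyp11b3 (chr7:115976559-116157978) and had 0.801 and 2.18 FPKM in left ventricle, against 60.5 and 44.4 in adrenal gland. Its log2 difference was -5.18 (SE 1.32, limma adjusted p = 0.00973), and the call was lost without left ventricle column 1 (adjusted p = 0.0691) and with a pseudocount of 0.01 (0.0703). TCONS_00098852, listed with the same interval and antisense to Timm8a1, a chaperone of mitochondrial protein import, had 0.231 and 2.55 FPKM in left ventricle, against 51.4 and 41.6 in adrenal gland, a log2 difference of -5.63 (SE 1.04, adjusted p = 0.00186). Plagl1, an imprinted gene that encodes a zinc finger transcription factor, shares a junction with TCONS_00000085 (chr1:8856930-8897146). That transcript had 0.266 and 0.507 FPKM in left ventricle, against 6.12 and 5.30 in adrenal gland (log2 difference -3.62, SE 0.365, adjusted p = 7.37e-05).

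Several other adrenal calls were again chosen for mention after their values were seen. TCONS_00065527, antisense to Zeb2, a zinc finger transcription factor of neural crest development, was listed at 0 in left ventricle and had 5.33 and 1.69 FPKM in adrenal gland (limma adjusted p = 7.85e-04). TCONS_00073698, which overlaps Reln, the gene of the secreted protein reelin, had 0.487 and 0.647 FPKM in left ventricle, against 8.09 and 5.59 in adrenal gland (log2 difference -3.37, adjusted p = 0.0026). TCONS_00095598, which shares a junction with Scx, a transcription factor of tendon cells, had 0.101 and 0.311 FPKM in left ventricle, against 2.97 and 2.49 in adrenal gland (log2 difference -3.30, adjusted p = 8.69e-04). For imprinted genes as a list, 2 of 39 had a transcript. At Mir675, whose microRNA is cut from the imprinted H19 transcript, TCONS_00012142 had 8.45 and 18.4 FPKM in left ventricle, against 13.3 and 16.1 in adrenal gland, a log2 difference of -0.22 (interval -1.42 to 0.98). A transcript sharing a junction with Myl1, the gene of a myosin light chain of fast skeletal muscle, had 4.43 and 34.9 FPKM in left ventricle, against 34.7 and 32.4 in adrenal gland. The left ventricle columns of that transcript (TCONS_00107388) were further apart than the tissues, and no difference was resolved (adjusted p = 0.326). Of 78 genes of well-known lncRNAs, 1 had a transcript, at Snhg11, which was not at a testable level in either tissue. None of 52 HOX cluster genes had one, and of 28 kidney and liver genes 6 had one, with Fga alone tested (log2 difference -0.95, adjusted p = 0.0946).

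Some tested transcripts lay close together on a chromosome. When tested transcripts whose loci lie within 100 kb were joined, 96 groups of 2 or more resulted. Of these, 32 held calls for left ventricle alone, 39 held calls for adrenal gland alone, 5 held both and 20 held none. With 59.8% of all tested transcripts called, these counts do not show that the calls lie together. The groups described next were chosen for their size after the values were seen. With 12 of 14 tested transcripts higher in adrenal gland, the largest group spans chr9:11060508-11560435 and overlaps ENSRNOG00000039248, ENSRNOG00000049194 and ENSRNOG00000049939. Its summed FPKM was 1.96 and 10.9 in left ventricle, against 138 and 131 in adrenal gland. A second stretch of chromosome 9 (chr9:7319662-7502218) held 6 tested transcripts at RGD1564665, of which 5 were higher in adrenal gland. The highest of them, TCONS_00106162, had 0.122 and 0.612 FPKM in left ventricle, against 19.4 and 18.1 in adrenal gland (log2 difference -5.57, SE 0.940, limma adjusted p = 0.00118). Many loci in each stretch are listed with a single interval and with the same gene, so near-identical copies may have divided reads, and the separate transcripts are uncertain. With 1 column left out, 9 to 11 of the 12 calls of the first group and 4 to 5 of the 5 calls of the second were made again.

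On chromosome 7, a pair of groups was higher in adrenal gland. Around Cyp11b3 (chr7:115976559-116411778), all 9 tested transcripts of 6 loci were higher in adrenal gland, with a sum of 1.49 and 5.65 FPKM in left ventricle, against 138 and 106 in adrenal gland. Besides Cyp11b3 and Timm8a1, this group includes transcripts at Ly6i and Gm20654. TCONS_00095514, antisense to Ly6i, had 0.186 and 0.0473 FPKM in left ventricle, against 3.47 and 2.94 in adrenal gland (log2 difference -4.00, limma adjusted p = 1.37e-04). At chr7:9865669-10274413, where 2 transcripts overlap the zinc finger gene Zfp347, all 4 tested transcripts were higher in adrenal gland and the sum was 10.9 and 12.1 FPKM in left ventricle, against 182 and 168 in adrenal gland. TCONS_00096637, the most abundant of the 4, had 5.59 and 8.61 FPKM in left ventricle, against 86.9 and 83.6 in adrenal gland, a log2 difference of -3.60 (SE 0.511, adjusted p = 4.42e-04). With any 1 of the 4 columns left out, 3 of these 4 calls were made again, and TCONS_00096639 lost its call each time (limma adjusted p = 0.0642 to 0.124). Of the 9 calls around Cyp11b3, 8 to 9 were made again.

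On chromosome 6 the adrenal transcripts lay in the region of the Dlk1-Dio3 imprinted domain, known in mammals for maternally expressed lncRNAs and a large cluster of microRNAs. All 5 tested transcripts between 142821642 and 143062780 were higher in adrenal gland. Without adrenal gland column 2, TCONS_00090695 and TCONS_00090724 fell under the FPKM minimum and were not tested. Their adrenal gland levels were 0.895 and 1.30 FPKM for TCONS_00090695, and 0.906 and 1.14 FPKM for TCONS_00090724. TCONS_00090635, which overlaps ENSRNOG00000041744, had 1.02 and 1.08 FPKM in left ventricle, against 47.1 and 43.0 in adrenal gland (log2 difference -5.30, SE 0.777, limma adjusted p = 5.31e-04). TCONS_00090674 had 0.392 and 1.15 FPKM in left ventricle, against 24.5 and 19.9 in adrenal gland (log2 difference -4.83, adjusted p = 3.41e-04). Adrenal gland columns 1 and 2 gave much the same level at both, unlike the hypothalamus transcripts described above, although TCONS_00090635 was also high in hypothalamus at 44.2 and 52.4 FPKM.

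Of 17 groups with 4 or more tested transcripts, 8 had at least 3 calls for adrenal gland and none for left ventricle, and 3 had the reverse. Over all 610 tested transcripts, 32.3% were higher in adrenal gland and 27.5% were higher in left ventricle. Many transcripts of a group share a locus or an interval, so they are not independent. Whether the groups lean to either tissue was not tested. The 3 groups with calls for left ventricle follow. At chr1:37139201-37393942 all 6 tested transcripts of 2 loci were higher in left ventricle, with a sum of 10.1 and 9.47 FPKM in left ventricle, against 0.936 and 0.873 in adrenal gland. TCONS_00007586, antisense to ENSRNOG00000017095, had 1.85 and 1.87 FPKM in left ventricle and was listed at 0 in adrenal gland (limma adjusted p = 1.84e-07). Around TCONS_00054657, all 4 tested transcripts at chr2:81839891-82054513 were higher in left ventricle, at 65.4 and 47.1 FPKM in sum in left ventricle, against 3.34 and 0.0713 in adrenal gland. At chr7:36929209-36960013, 4 of 5 were higher in left ventricle, where the sum was 13.9 and 13.7 FPKM, while the adrenal gland columns were at or close to 0. Without left ventricle column 1, 4 of the 6 calls on chromosome 1 and 2 of the 4 on chromosome 2 remained, and without left ventricle column 2, 2 of the 4 on chromosome 7 remained.

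At 3 loci, isoforms of the same locus differed in opposite directions. On chromosome X (chrX:142573297-142607706), 3 isoforms of 15301 to 15840 bases were called, not all in the same direction. How reads were divided between isoforms so close in length is uncertain. TCONS_00114421 had 3.08 and 3.23 FPKM in left ventricle, against 0.138 and 0 in adrenal gland, a log2 difference of 4.40 (SE 0.493, limma adjusted p = 1.2e-04). TCONS_00114419 was below 0.001 FPKM in both left ventricle columns and had 1.85 and 3.99 FPKM in adrenal gland (adjusted p = 0.0134). TCONS_00114420 had 0.388 and 0.186 FPKM in left ventricle, against 6.58 and 2.01 in adrenal gland (log2 difference -3.33, adjusted p = 0.0285). The sum of the locus was 3.47 and 3.42 FPKM in left ventricle, against 8.57 and 6.00 in adrenal gland, a log2 difference of -1.04 (SE 0.346, adjusted p = 0.0296). The call of TCONS_00114419 was lost without either left ventricle column or adrenal gland column 2 (adjusted p 0.0555 to 0.0807). That of TCONS_00114420 was lost without either left ventricle column or adrenal gland column 1 (adjusted p 0.0722 to 0.161), and with a pseudocount of 0.01 (0.177). TCONS_00114421 was called in every fit with 1 column left out.

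A locus on chromosome 4 (chr4:232836705-232847880) had isoforms called in opposite directions with no resolved difference in its sum. TCONS_00077052 had 1.63 and 1.40 FPKM in left ventricle, against 0.0866 and 0 in adrenal gland (log2 difference 3.56, SE 0.551, limma adjusted p = 7.21e-04). TCONS_00077054 was below 0.001 FPKM in both left ventricle columns and had 1.39 and 1.25 FPKM in adrenal gland (adjusted p = 1.92e-04). The summed FPKM of the locus was 2.54 and 2.19 in left ventricle, against 2.50 and 2.13 in adrenal gland, a log2 difference of 0.03 (SE 0.327, adjusted p = 0.935). The 2 isoforms are listed at 2712 and 2763 bases, and which isoform a short read came from is an estimate of the authors' program.

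**Figure D4:**
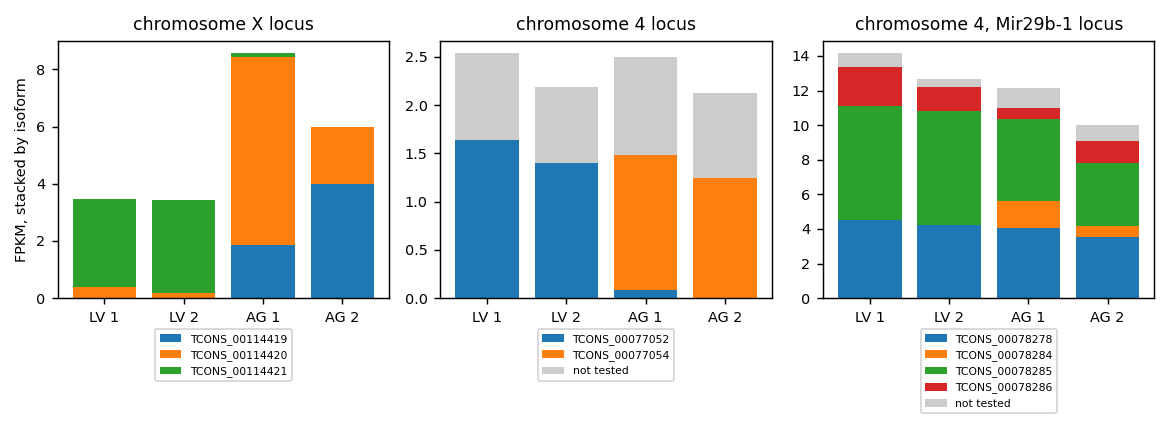
FPKM stacked by isoform (vertical axis) in columns 1 and 2 of left ventricle (LV) and adrenal gland (AG) at the 3 loci with isoforms called in opposite directions, with isoforms under the FPKM minimum in grey. At the middle locus different isoforms make up a similar sum, 2.54 and 2.19 in left ventricle and 2.50 and 2.13 in adrenal gland, while at the right-hand locus the isoform TCONS_00078278 is about as high in all 4 columns.

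The third locus lies at Mir29b-1 (chr4:58098301-58417174). TCONS_00078278, its 21449-base isoform, was among the shared transcripts, at 4.50 and 4.24 FPKM in left ventricle and 4.07 and 3.52 FPKM in adrenal gland (log2 difference 0.20, interval -0.25 to 0.65). TCONS_00078285 had 6.62 and 6.55 FPKM in left ventricle, against 4.70 and 3.68 in adrenal gland (log2 difference 0.65, limma adjusted p = 0.0472). Its call was lost under 9 of 14 alternatives, among them each fit without a left ventricle column or without adrenal gland column 2 (adjusted p 0.103 to 0.162). TCONS_00078284 was listed at 0 in left ventricle and had 1.56 and 0.622 FPKM in adrenal gland (adjusted p = 2.38e-04). The locus as a whole was shared, at 14.2 and 12.7 FPKM in left ventricle and 12.1 and 10.03 FPKM in adrenal gland. Nearly all of that sum came from isoforms that the table assigns to no gene, not from those assigned to Mir29b-1.

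Loci with transcripts assigned to a microRNA gene can be named by a defined product. MicroRNAs pair with messenger RNAs through a seed, bases 2 to 8 of the mature strand, and lower their stability and translation. The FPKM measures the long host transcript, and mature microRNAs were not measured. The table names 26 microRNA genes, and RefSeq (GRCr8) gave mature sequences for 20 of them. The sequences shown here, 1 strand per microRNA, are those of loci whose summed FPKM was called different or shared, 5′ to 3′, with the seed in capitals, so that products with a common seed can be seen.
rno-miR-143-3p: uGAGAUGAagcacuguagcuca
rno-miR-29b-3p: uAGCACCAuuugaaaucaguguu
rno-miR-666-5p: aGCGGGCAcggcugugagag
rno-miR-667-3p: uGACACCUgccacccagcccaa
rno-miR-6331: cUUUGGUGgcuuaguucuuugugc
rno-let-7c-5p: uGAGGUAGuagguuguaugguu
rno-miR-221-3p: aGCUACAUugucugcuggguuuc
rno-miR-325-3p: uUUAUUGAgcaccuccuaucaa
rno-miR-384-5p: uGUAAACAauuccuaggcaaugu
Among these, miR-29b-3p comes from both Mir29b-1 and Mir29b-2 and let-7c-5p from both Mirlet7c-1 and Mirlet7c-2, each pair with an identical mature sequence. All other seeds shown are unlike each other.

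Of 22 microRNA loci, 13 were tested as sums of FPKM. Of these 13, 2 were higher in left ventricle, 4 were higher in adrenal gland, 1 was shared and 6 were neither. Over all 540 loci tested, 28.7% were higher in left ventricle and 33.3% were higher in adrenal gland. The median log2 difference of the 13 microRNA loci was -0.28, against -0.38 over all 540 loci. Mir143, which is known for its role in smooth muscle cells, had a sum of 8.77 and 7.48 FPKM in left ventricle, against 2.68 and 1.98 in adrenal gland, a log2 difference of 1.77 (SE 0.228, limma adjusted p = 2.37e-04). Its isoform TCONS_00050239 had 2.75 and 2.54 FPKM in left ventricle, against 0.760 and 0.450 in adrenal gland (log2 difference 1.997, adjusted p = 4.97e-04). Outer medulla, not left ventricle, was the highest of the 6 tissues for that isoform. Mir29b-2 had 3.66 and 3.84 FPKM in left ventricle, against 2.01 and 2.151 in adrenal gland (log2 difference 0.82, SE 0.231, adjusted p = 0.0144), and that call was lost without left ventricle column 2 (adjusted p = 0.0544) or adrenal gland column 1 (0.0550). Both loci with a gene of miR-29b-3p were thus measured as sums, that of Mir29b-2 as different and that of Mir29b-1 as shared. At the Mir29b-1 locus nearly all of the sum came from isoforms assigned to no gene. The isoforms assigned to Mir29b-1 itself were not at a testable level, and the difference between the 2 loci was not tested.

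The largest adrenal excess was at the chromosome 6 locus of mir-679, Mir666, Mir667 and mir-6331. The sum of its 12 transcripts was 0.209 and 0.236 FPKM in left ventricle, against 5.47 and 5.77 in adrenal gland (log2 difference -4.15, SE 0.289, limma adjusted p = 1.3e-05), and it was 5.05 and 5.70 in hypothalamus. Mir325 and Mir384 share a locus with 0.265 and 0.285 FPKM in left ventricle, against 1.53 and 2.75 in adrenal gland (log2 difference -2.52, SE 0.503, adjusted p = 0.00258). In hypothalamus that locus had 10.97 and 12.05 FPKM. Without adrenal gland column 2, a fit of locus sums added after the values were seen, its log2 difference was -2.12 (adjusted p = 0.0226) and that of the chromosome 6 locus was -4.11 (adjusted p = 1.87e-04). The Mir221 locus had 0.317 and 0.472 FPKM in left ventricle, against 1.39 and 1.14 in adrenal gland (log2 difference -1.48, SE 0.340, adjusted p = 0.00548). That sum covers 7 transcripts, of which 5 are assigned to Mir221. None of these 5 was at a testable level alone, and how far the excess rests on them was not tested.

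Of the let-7c genes, only Mirlet7c-2 passed the test. Mirlet7c-2 had 1.82 and 2.19 FPKM in left ventricle, against 3.65 and 3.92 in adrenal gland (log2 difference -0.89, SE 0.235, limma adjusted p = 0.0109), and its adjusted p was 0.0582 without left ventricle column 1. Mirlet7c-1 had 1.90 and 2.42 FPKM in left ventricle, against 1.42 and 1.23 in adrenal gland (log2 difference 0.66, adjusted p = 0.11). The difference between the let-7c loci was not tested. Mir675 as a locus had 8.45 and 18.4 FPKM in left ventricle, against 13.8 and 16.6 in adrenal gland (log2 difference -0.28, adjusted p = 0.645). Its left ventricle columns enclosed both adrenal gland columns. The other loci that were neither called nor shared were mir-1839 (log2 difference 0.91), mir-6326 (-0.27), Mir421 (-0.71) and Mir223 (-1.90), with adjusted p-values between 0.097 and 0.704. The left ventricle columns of Mir223 stood far apart, at 6.97e-04 and 0.863 FPKM, against 1.11 and 1.02 in adrenal gland. Its log2 difference was -0.27 (adjusted p = 0.637) without left ventricle column 1 and -3.53 (adjusted p = 7.61e-04) without left ventricle column 2.

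**Figure D5:**
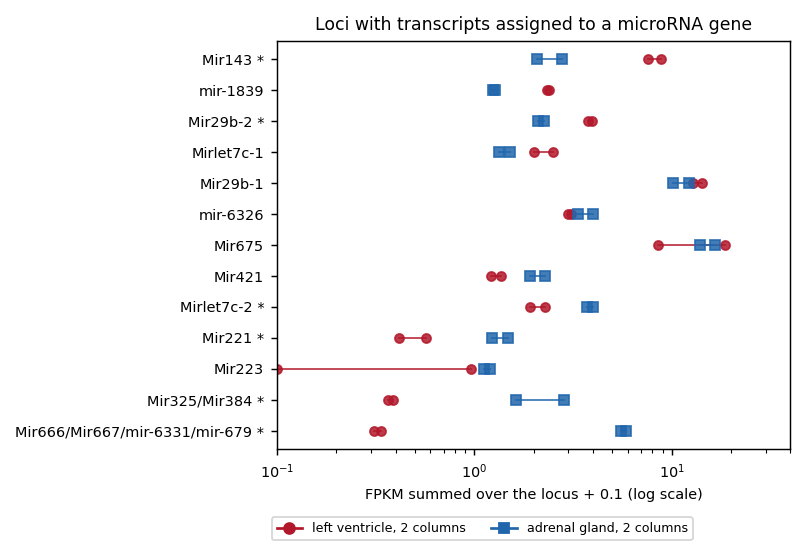
Summed FPKM + 0.1 (log scale) of the 13 tested loci with transcripts assigned to a microRNA gene, in each column of left ventricle (circles) and adrenal gland (squares), with a line joining the 2 columns of a tissue and an asterisk at adjusted p under 0.05. Loci run from the largest excess in left ventricle, Mir143, to the largest in adrenal gland, the chromosome 6 locus with mir-679.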

How the data were processed

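Per the labels' protocols, TRIzol served for RNA extraction and the TruSeq Stranded RNA LT kit for the libraries. The submitters' processing notes name bcl2fastq 2.15.0 and the build rn5. The authors deposited FPKM for a selection of lncRNA transcripts. How reads were aligned and FPKM estimated, with which annotation and strand setting, and what counted as a lncRNA, is not given in the sources. Transcript length in bases was deposited as another column. Coordinates are rn5 locus intervals as deposited. The table lists 2458 transcripts, and the 3 that have no values were dropped. The columns coded B were taken as hypothalamus because the letters of all others fitted another tissue.

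A count test was not possible. limma 3.58.1 (R 4.3.3) with a mean-variance trend was fitted to log2(FPKM + 0.1) over 12 columns with tissue as factor, with Benjamini-Hochberg adjustment over 610 transcripts (or 540 locus sums). Fold changes are on that scale and understate changes of low transcripts. Depth was estimated from transcripts over 500 bases alone at their locus with an assumed fragment of 140 bases. Between 86.1 and 87.4% of low values lay within 0.15 of a whole fragment. On simulated data for left ventricle against adrenal gland (610 transcripts), the fit called 26.9% of transcripts changed 2-fold, 64.2% of those changed 4-fold and 78.8% of those changed 8-fold. False calls were 5 of 118 (4.24%). These rates hold only for the levels and changes that were simulated. They were not worked out separately for transcripts with no signal in the lower tissue. How the FPKM minimum selects transcripts that differ is not measured by them either.

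Named transcripts are the 5 most abundant per tissue, the 8 largest differences in each direction, the 8 most abundant and 4 closest shared ones, the 4 largest differences in each direction with a gene symbol, the loci with opposite isoforms, and members of gene lists. MicroRNA loci were found by gene name. Members, lists and rules were chosen with earlier results of these data known. Alternatives were other pseudocounts and FPKM minimums, rescaling, other sets of columns, locus sums, rules of size, a replicate block, and each column left out.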

Additional observations from a re-analysis of the deposited data

How the results depend on the processing

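No transcript's call turned direction under any alternative fitted per transcript. The columns of both tissues did not overlap for any of the 365 called transcripts, so apart from rescaling no alternative could have turned one. With a minimum of 2 FPKM, 95 transcripts were higher in left ventricle, 106 were higher in adrenal gland and 1 locus had opposite isoforms, by construction with fewer transcripts tested. The number of shared transcripts depended most on settings. It was 58 with a pseudocount of 1, 33 with a minimum of 0.5 FPKM, 102 with no minimum and 35 for sums per locus. It fell to 15 when the left ventricle and adrenal gland columns were fitted alone, and 13 of these were among the 21. In that fit, 154 transcripts were higher in left ventricle and 178 were higher in adrenal gland. Of these, 146 and 169 were calls of the main fit. With a lower minimum, the level asked of a shared transcript fell too, and 932 or 2195 transcripts were tested, so more could be shared by construction. A larger pseudocount makes the log2 differences of low transcripts smaller. What else changed these numbers was not tested. With 1 column left out, calls ranged from 150 to 176 for left ventricle and from 163 to 182 for adrenal gland, shared transcripts from 13 to 17, and loci with opposite isoforms from 2 to 3. Locus sums with 1 column left out, chosen after seeing the data, gave 132 to 147 and 143 to 172 calls. A lone column of a tissue is assumed to vary like the other tissues. Of 36 called transcripts named by rule, 27 kept their call under every alternative that tested them. With the column number as a replicate block, 167 transcripts were higher in left ventricle, 198 were higher in adrenal gland, 23 were shared and 2 loci had opposite isoforms. Deviations from the tissue means correlated at 0.17 between same-numbered left ventricle and adrenal gland columns, which does not show that numbers pair the columns. The lower depth of left ventricle limits its low values most.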
